A study of Mus musculus with 18 samples.

Results

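The kainate receptor genes are the targets of kainic acid (KA), the drug injected to provoke seizures in these mice. They were taken by symbol, namely Grik1, Grik2, Grik3, Grik4 and Grik5, which encode the receptor subunits GluK1 to GluK5, and Neto1 and Neto2, which encode auxiliary subunits. All 7 were among the 55291 gene symbols in every count and FPKM (fragments per kilobase of gene, scaled to library size) file. RNA came from the right hippocampus of male C57BL/6J mice labelled wild type (WT), injected at 6 weeks of age into right CA3 with an adeno-associated virus (AAV-DJ) whose astrocyte promoter GfaABC1D drives the green fluorescent ribosomal protein EGFP-Rpl10a. The AAV-Control group had the virus alone and was collected 2 weeks later. The KA group had 50 nL of 20 mM KA in the right dentate gyrus 2 weeks after the virus and was collected 14 days after KA, and the PBS group had phosphate-buffered saline after the virus, with no collection time of its own given in the sources used here. Each group had 3 homogenates, and each homogenate pooled 3 to 4 hippocampi, so that single animals cannot be followed. From each homogenate, ribosome-bound RNA was pulled down with an anti-GFP antibody (IP) and part of the supernatant was kept as total hippocampal RNA (input), which gave 18 libraries. The KA and AAV-Control groups differ in surgery and in time after the virus as well as in KA, and these cannot be told apart.

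Kainate receptors are glutamate-gated cation channels built of several subunits. GluK1, GluK2 and GluK3 bind kainate with low affinity and can form channels by themselves, whereas GluK4 and GluK5 bind it with high affinity and need one of the former as a partner. Neto1 and Neto2 are transmembrane proteins that slow receptor gating and change how tightly the agonist is held. In the hippocampus, these receptors are best known at mossy fibre synapses onto CA3 pyramidal cells, at presynaptic terminals and in interneurons.

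Promoter windows were at hand for 5 of the 7 members (Grik1 and Neto1 are the others), from the RefSeq table of build GRCm38.p6. The 250 bases before the transcription start are shown for the members that moved together in IP between KA and PBS and had a window (Grik2, Grik3 and Grik4) and for the one that moved the other way (Neto2, at the outer of its start sites). Capitals mark the GC box GGGCGG, the motif of Sp1-type factors, read on both strands.
Grik2, chr10:49788755-49789004, minus strand: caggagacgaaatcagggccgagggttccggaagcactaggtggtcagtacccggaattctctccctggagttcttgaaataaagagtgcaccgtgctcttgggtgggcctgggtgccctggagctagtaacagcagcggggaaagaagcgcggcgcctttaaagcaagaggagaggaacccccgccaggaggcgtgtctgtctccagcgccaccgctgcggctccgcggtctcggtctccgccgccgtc
Grik3, chr4:125490446-125490695, plus strand: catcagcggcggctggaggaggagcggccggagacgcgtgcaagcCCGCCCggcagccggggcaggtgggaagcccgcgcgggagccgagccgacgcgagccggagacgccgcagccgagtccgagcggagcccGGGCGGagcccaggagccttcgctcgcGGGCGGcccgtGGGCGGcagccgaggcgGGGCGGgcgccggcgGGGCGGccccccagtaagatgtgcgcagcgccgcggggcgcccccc
Grik4, chr9:42944372-42944621, minus strand: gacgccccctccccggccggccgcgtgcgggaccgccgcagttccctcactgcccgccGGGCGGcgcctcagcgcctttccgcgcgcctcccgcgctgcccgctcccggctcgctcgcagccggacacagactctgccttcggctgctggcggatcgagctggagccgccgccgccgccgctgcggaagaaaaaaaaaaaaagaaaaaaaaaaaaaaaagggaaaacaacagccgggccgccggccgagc
Neto2, chr8:85700925-85701174, minus strand: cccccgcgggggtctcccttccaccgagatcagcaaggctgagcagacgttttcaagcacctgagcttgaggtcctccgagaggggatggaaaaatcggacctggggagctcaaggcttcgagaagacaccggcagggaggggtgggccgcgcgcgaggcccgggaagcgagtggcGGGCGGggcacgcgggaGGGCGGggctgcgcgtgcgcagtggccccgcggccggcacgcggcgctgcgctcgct

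The Grik3 window held 6 GC boxes, the Neto2 window 2 and the Grik4 window 1, whereas the Grik2 window held 0. Among the 32851 RefSeq windows of the same length, 32.7% held the motif. The share of G and C in the window was 62.8% for Grik2, 82.0% for Grik3, 69.6% for Grik4 and 72.0% for Neto2. The cyclic AMP response element TGACGTCA, found in 1.55% of all windows, and the AP-1 site TGANTCA, found in 6.75%, were searched on both strands as motifs of activity-regulated factors, and neither matched in these windows. A match or its absence is a description of this window alone.

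The members lie on separate chromosomes of the mouse genome (mm10, equal to GRCm38). Grik1 is at chr16:87895900-88290265 and Grik2 at chr10:49094833-49788766, both on the minus strand. Grik3 is at chr4:125490700-125714173 on the plus strand. Grik4 at chr9:42518135-42944493 and Grik5 at chr7:25009849-25072346 are on the minus strand. Neto1 is at chr18:86394952-86506718 on the plus strand and Neto2 at chr8:85636588-85700924 on the minus strand. These are GENCODE coordinates, and the Grik2 and Grik4 windows above, placed by RefSeq starts, reach into the genes as given here. An annotated gene touched an exon of 3 members. The miscellaneous RNA inside Grik4 had 0 counts in every library and the microRNA Mir8109, opposite to Neto2, had at most 10, while the transcript antisense to Neto1 was not analysed here.

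Library totals were between 7991681 and 16032180 counts, and the members were read at 23 to 1360 counts per library, so that Grik3 in IP, with 23 to 99 counts, was the least precise. The 10 astrocyte markers were all higher in IP than in input in each group, and the 9 neuronal markers were lower in the IP of AAV-Control and PBS, 7 of them also in KA. The size of these differences varied between groups. For IP over input, Slc1a2 was at log2 2.92 in PBS and 1.44 in KA, and Kcnj10 at 2.44 and 2.36. Of the neuronal markers, Syp was at -2.99 in PBS and -1.05 in KA, and Elavl4 at -2.09 and -2.89. The oligodendrocyte marker Mog was at -0.61 in PBS and 1.66 in KA. In AAV-Control IP #3 the 6 oligodendrocyte markers summed to 1037 FPKM against 246.8 and 316.3 in its fellow libraries. Without homogenate #3 of AAV-Control, PBS and AAV-Control differed in 4411 genes in input and 1621 in IP, against 0 and 3 with it. KA and AAV-Control #1 and #2 were sequenced in run 1 and #3 in run 2, and all PBS samples in run 3, and for PBS the run therefore cannot be told apart from the group. In input, all 8 microglial markers were higher in KA than in either reference group, and their summed level was 698.4 to 1231 FPKM in KA, 77.8 to 128.9 in AAV-Control and 91.1 to 102.7 in PBS.

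The levels of the members, per kilobase of gene, differed by over an order of magnitude. In input, the high-affinity subunit gene Grik5 had 17.9 ± 3.25 FPKM in AAV-Control, 14.4 ± 2.03 in PBS and 15.3 ± 2.48 in KA (mean ± SD, n = 3 here and below). Neto1 followed in AAV-Control with 15.2 ± 3.43 FPKM and was level with Grik5 in PBS with 14.7 ± 1.17. These values overlapped in both reference groups, while in KA the highest Neto1 library, at 10.8 FPKM, was below the lowest Grik5 library, at 12.5. Neto2 came next with 4.87 to 6.55 FPKM as group means, then Grik4 with 2.60 to 3.48 and Grik2 with 1.75 to 2.44. Grik1 and Grik3 were lowest, with group means of 1.36 to 1.45 and 1.08 to 1.48 FPKM, and their libraries overlapped in AAV-Control and PBS but not in KA. In IP, Grik5 again led with 9.54 to 10.03 FPKM as group means, and Grik3 closed the order with 0.243 to 0.639. Between them, the order was Neto1, Neto2, Grik4, Grik2 and Grik1 in AAV-Control and KA. In PBS, Neto2 stood after Grik1, and the libraries of Grik4, Grik2, Grik1 and Neto2 overlapped there.

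**Figure D1:**
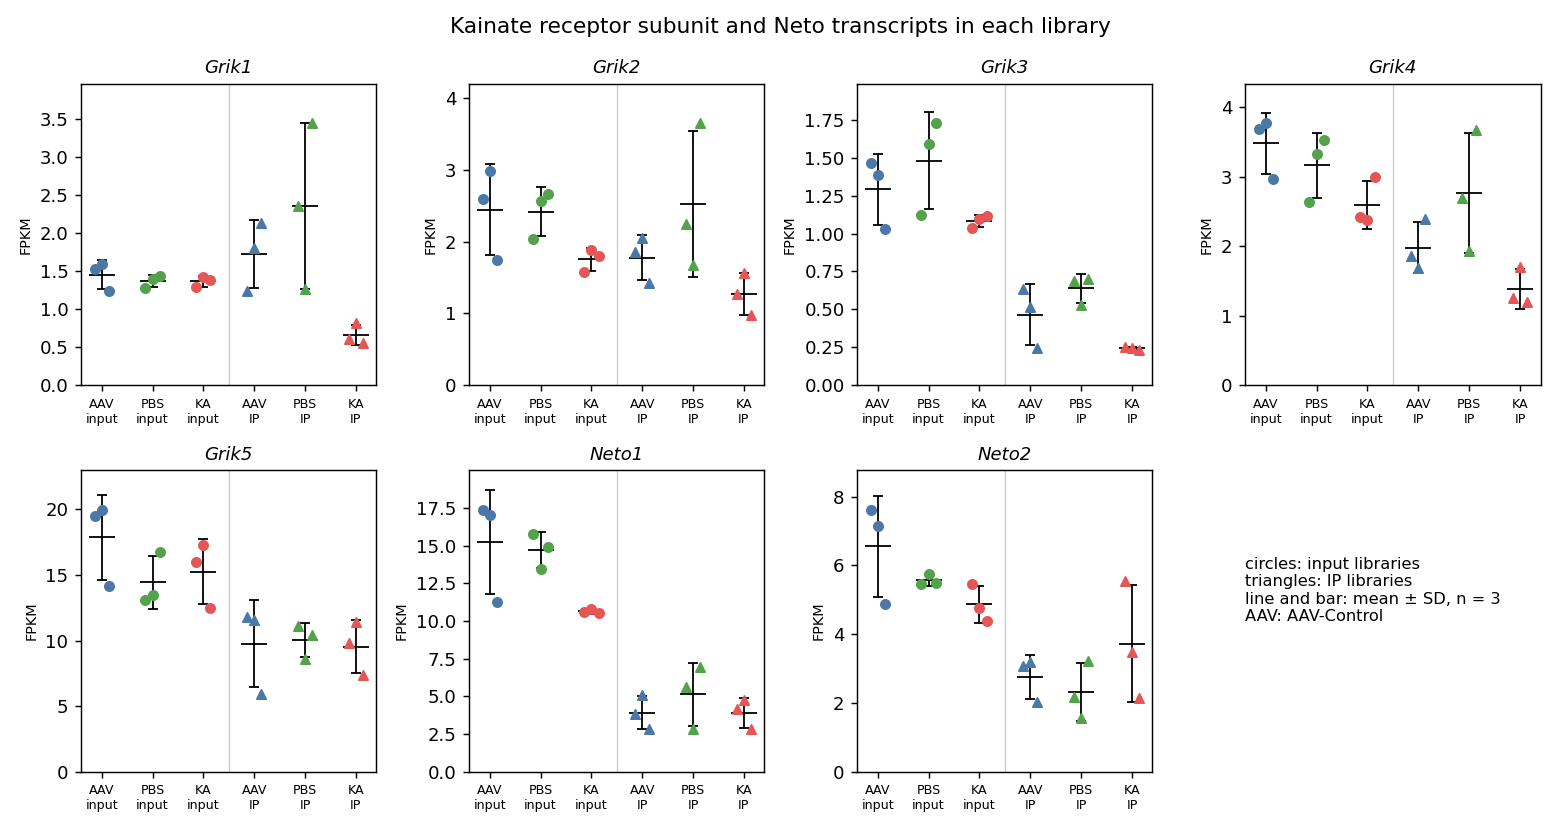
FPKM of each member (vertical axis, from 0) in each of the 18 libraries, by group and kind of library. Points are single libraries (circles for input, triangles for IP) and the line with bars is mean ± SD (n = 3). The 3 KA IP libraries of Grik1 sit between 0.557 and 0.814 FPKM, under every AAV-Control and PBS IP library.

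Within the summed FPKM of Grik1 to Grik5, Grik5 took 60.2% to 71.9% of each input library. Grik1 took 5.30% to 7.001% of input in any group. In IP the Grik1 share was 7.10%, 10.3% and 17.5% in AAV-Control, 12.3%, 9.04% and 15.7% in PBS, and 4.55%, 5.17% and 5.39% in KA. The KA libraries thus lay below every other IP library, and their Grik5 share, at 71.4% to 74.5%, lay above every other IP library. The Grik3 share in IP was 1.56% to 2.27% in KA, 2.004% to 3.66% in AAV-Control and 3.204% to 3.77% in PBS.

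**Figure D2:**
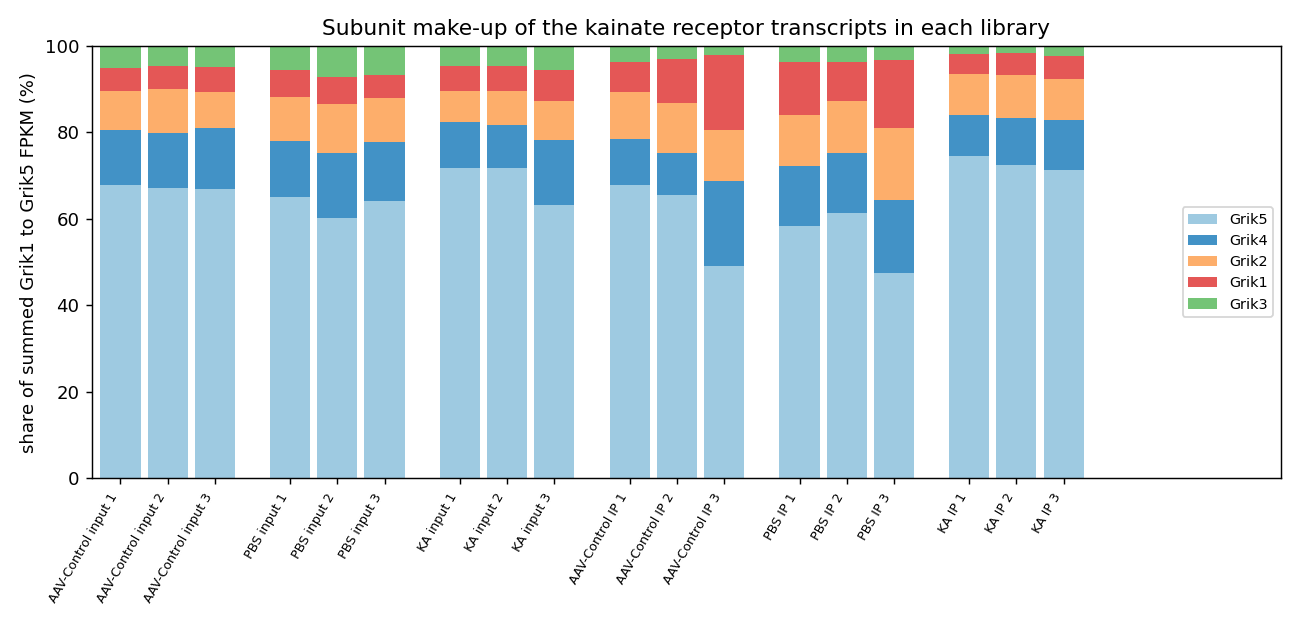
Share (%) of each subunit gene in the summed FPKM of Grik1 to Grik5 (vertical axis) in each library (bars, numbered by homogenate). Grik5 is the largest part everywhere, and the Grik1 part of the KA IP bars, 4.55% to 5.39%, is below that of the other IP bars.

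The level of the auxiliary genes relative to the subunit genes was also set side by side. Summed Neto1 and Neto2 FPKM per summed Grik FPKM was 0.719, 0.646 and 0.754 in KA input, against 0.867, 0.814 and 0.766 in AAV-Control and 1.05, 0.860 and 0.780 in PBS. In IP it was 0.732, 0.525 and 0.482 in KA, against 0.398, 0.469 and 0.403 in AAV-Control and 0.408, 0.316 and 0.466 in PBS. The KA libraries were thus the lowest in input and the highest in IP without overlap, as a description of 3 libraries a group. Neto1 per Neto2 in IP was 0.747, 1.37 and 1.32 in KA, 1.26, 1.59 and 1.42 in AAV-Control, and 2.58, 1.84 and 2.17 in PBS.

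In input, the comparison of KA with AAV-Control asked whether whole-hippocampus receptor transcripts changed 14 days after KA. None of the 7 members passed edgeR's quasi-likelihood test (adjusted p under 0.05 after Benjamini-Hochberg adjustment over all genes tested), where 7.2% of all genes passed. At an unadjusted p under 0.05 there were 4, where 20.1% of all genes were, and DESeq2 and limma-voom called 0 each. Neto1, the auxiliary subunit of CA3 receptors, had 10.6, 10.8 and 10.5 FPKM in KA and 17.4, 17.1 and 11.3 in AAV-Control. The groups did not overlap, but AAV-Control #3 stood close to KA. Here and below, non-overlap describes 3 libraries a group, and its share over all genes is not given. The log2 fold change of Neto1 was -0.51 (SE 0.16, 95% interval -0.87 to -0.16, adjusted p = 0.0983). Same-numbered homogenates of these groups varied together, although they are separate pools that share a sequencing run and are not pairs by design. With the replicate number as a block Neto1 alone passed (log2 fold change -0.50, adjusted p = 0.0458). With sequencing run as a covariate Neto2 passed as well (-0.42, adjusted p = 0.0350). Within run 1, with 2 libraries a group, 38.6% of all genes passed, 17.8% lower, and 5 members were lower, at log2 fold changes of -0.68 for Neto1, -0.68 for Grik2, -0.63 for Grik4, -0.52 for Neto2 and -0.24 for Grik5. Without AAV-Control #3, the count was 3, which were Grik2, Neto1 and Neto2. Grik1, at -0.09 (95% interval -0.50 to 0.32), was the member nearest to 0.

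Against PBS, 2 members were lower in KA input, Neto1 and Grik2, where 27.8% of all genes passed and 11.3% were lower. Neto1 had 15.8, 13.5 and 14.9 FPKM in PBS, each above the KA libraries, at a log2 fold change of -0.51 (SE 0.12, adjusted p = 0.00734). Grik2, the main low-affinity subunit of mossy fibre synapses, had 1.58, 1.89 and 1.80 FPKM in KA and 2.03, 2.57 and 2.66 in PBS. The groups did not overlap, and the log2 fold change was -0.49 (SE 0.12, adjusted p = 0.0117). Grik3, with 1.04, 1.10 and 1.11 FPKM in KA and 1.12, 1.59 and 1.73 in PBS, had a log2 fold change of -0.47 and an adjusted p of 0.0532 (0.0458 with RLE size factors). For Grik1 and Grik5, the 95% intervals of the log2 fold change were -0.40 to 0.32 and -0.20 to 0.28. Both calls were lost when all 18 libraries entered 1 fit (adjusted p = 0.109 for Neto1 and 0.0781 for Grik2). Grik2 was also lost without KA #1 (adjusted p = 0.0657) or PBS #2 (0.0511). Without KA #3 the count was 4, with Grik3 and Grik4 added, where 6633 of all genes passed, against 4369 with it.

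Some neuronal markers were lower in the same KA input libraries, and fewer cells of a type and less RNA per cell cannot be told apart in such bulk samples. Among the 6 dentate granule cell markers, 4 were lower in KA than in AAV-Control and 4 than in PBS, and their sum was 35.1 to 47.3 FPKM in KA, 49.8 to 55.9 in AAV-Control and 50.6 to 61.0 in PBS. Among the 8 CA pyramidal cell markers, 3 and 5 were lower, with sums of 171.3 to 185.3 FPKM in KA, 230.2 to 298.0 in AAV-Control and 266.4 to 289.1 in PBS. Of 9 pan-neuronal markers, 0 passed against AAV-Control, and 4 were lower and 1 higher against PBS. The 9 interneuron markers summed to 1464 to 2503 FPKM in KA, 1719 to 1870 in AAV-Control and 1710 to 1744 in PBS. Against PBS, Gad1, Sst, Pvalb and Lhx6 of that list were lower and Npy was higher. No marker of these lists was at 0. Their part in the lower Neto1 and Grik2 was not tested. The median log2 fold change of the members was -0.42 against AAV-Control and -0.31 against PBS, and that of all genes was -0.03 and 0.00. The medians of the pan-neuronal markers were -0.23 and -0.37, those of the CA pyramidal cell markers -0.93 and -0.87, and those of the granule cell markers -1.23 and -1.21.

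In IP, the comparison of KA with AAV-Control asked the same of RNA pulled down with the tagged ribosomes. Such RNA is enriched for the virus-labelled cells and not limited to them. How much of the member RNA in IP came from other cells was not tested. Grik1, which encodes the low-affinity subunit GluK1, was the only member called, and it was lower, where 19.8% of all genes passed and 8.74% were lower. Its libraries read 0.601, 0.814 and 0.557 FPKM in KA and 1.24, 1.80 and 2.13 in AAV-Control. All KA libraries were below all AAV-Control libraries, at a fold of 0.408 (log2 -1.29, SE 0.29, 95% interval -1.96 to -0.63, adjusted p = 0.0173). Grik1 also passed the study's limit of a 2-fold change, which 13.9% of all genes met. Within run 1 it was lower as well (log2 -0.998, adjusted p = 0.0112). The call was lost without KA #1 (adjusted p = 0.0783), KA #3 (0.0542) or AAV-Control #2 (0.0517), with log2 fold changes between -1.29 and -1.19. The study's filter of FPKM above 1 in every compared library leaves out Grik1, Grik2 and Grik3, and 0 of the other 4 members passed under it.

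The other members of that comparison did not pass. Grik3 had 0.2502, 0.246 and 0.234 FPKM in KA and 0.637, 0.513 and 0.244 in AAV-Control, where #3 lay within the KA range (log2 -0.78, adjusted p = 0.179). It passed when AAV-Control #3 was left out or when all 18 libraries entered 1 fit. Grik2 and Grik4 had log2 fold changes of -0.37 and -0.42, with 95% intervals of -0.81 to 0.07 and -1.004 to 0.15. Grik5, Neto1 and Neto2 were at 0.09, 0.11 and 0.54. Within run 1, where 43.1% of all genes passed, Neto2 did (log2 0.64, adjusted p = 0.0239), where Grik3 did too (-1.10, adjusted p = 0.0181).

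Against PBS, 5 members differed in IP, where 40.4% of all genes passed, 20.8% lower and 19.6% higher. The low-affinity subunit genes Grik1, Grik2 and Grik3 and the high-affinity subunit gene Grik4 were lower in KA, and Neto2 was higher. Grik1 had 2.35, 1.26 and 3.44 FPKM in PBS, all above KA, at a fold of 0.323 (log2 -1.63, SE 0.29, adjusted p = 0.000886). Grik3 had 0.689, 0.527 and 0.701 FPKM in PBS, again all above KA (log2 -1.22, SE 0.31, adjusted p = 0.00774). Both passed the 2-fold limit, which 25.9% of all genes met.

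Grik2 had 1.27, 1.57 and 0.971 FPKM in KA IP and 2.24, 1.68 and 3.65 in PBS IP (log2 -0.80, SE 0.22, adjusted p = 0.0118). Grik4 had 1.25, 1.71 and 1.19 in KA and 2.69, 1.94 and 3.67 in PBS (log2 -0.81, SE 0.23, adjusted p = 0.0132), and neither gene's groups overlapped. Neto2, whose product also binds the potassium-chloride transporter KCC2, had 5.54, 3.49 and 2.14 FPKM in KA and 2.18, 1.56 and 3.22 in PBS. In FPKM these groups overlapped, since KA #3 was below PBS #1 and #3, whereas in CPM (counts scaled to library size) with TMM scaling over all 18 libraries they did not, at 37.3, 23.4 and 16.9 in KA and 13.7, 11.6 and 15.6 in PBS. With TMM scaling over the 6 libraries of the test, they overlapped. The log2 fold change was 0.86 (SE 0.28, adjusted p = 0.0251), and without KA #1 it was 0.53 and not called (adjusted p = 0.157). Without KA #1 Grik4 was lost too (adjusted p = 0.0753), which left 3 members. Neto2 was also lost without PBS #1 (0.0535) or PBS #2 (0.0728) and under the FPKM filter (0.0885). Grik5, at log2 0.07 (95% interval -0.33 to 0.48), and Neto1, at -0.21 (-0.71 to 0.30), did not pass.

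**Figure D3:**
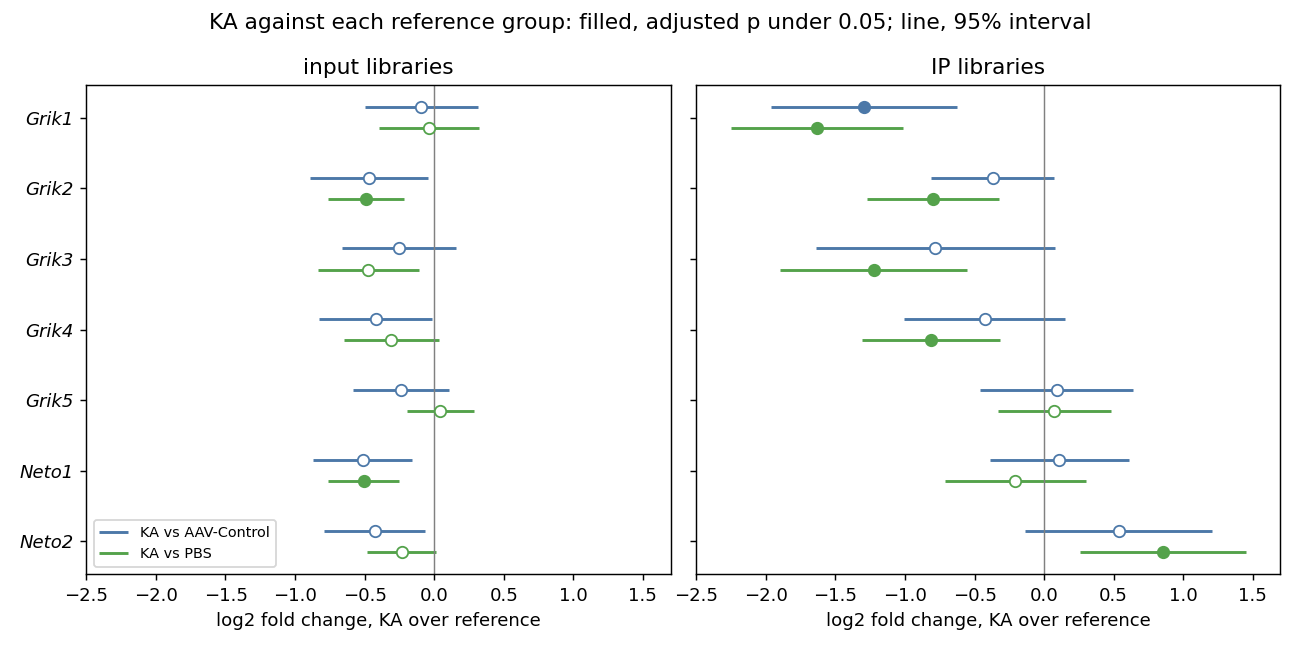
Log2 fold change of KA over AAV-Control and over PBS (horizontal axis) for each member in input and in IP, each from 6 libraries. Points are estimates, filled where the adjusted p was under 0.05, and lines are 95% intervals. Grik1 lies near 0 in input (-0.09 and -0.04) and at -1.29 and -1.63 in IP.

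Marker levels also differed in IP. The 10 astrocyte markers summed to 5310 to 6238 FPKM in KA, 3252 to 4253 in AAV-Control and 2965 to 4795 in PBS, with 2 higher and 4 lower against AAV-Control and 3 higher and 2 lower against PBS. The 5 oligodendrocyte precursor markers held 3 that were lower in KA than in AAV-Control (Pdgfra, Cspg4 and Gpr17). Against PBS, 1 was lower (Pdgfra) and 2 were higher (Olig1 and Olig2). Pdgfra, a growth factor receptor gene, had 0.206, 0.364 and 0.209 FPKM in KA IP, 1.38, 1.62 and 1.495 in AAV-Control IP and 0.990, 0.638 and 0.922 in PBS IP. KA was thus lowest (log2 -2.42 and -1.55, edgeR adjusted p = 0.000913 and 0.00206). PBS over AAV-Control in IP was at log2 -0.87 for Pdgfra and 0.34 for Grik1, neither called. Summed over the list, which Olig1 dominates, the level was 66.7 to 129.8 FPKM in KA, 76.0 to 82.1 in AAV-Control and 44.0 to 55.5 in PBS, and no marker was at 0. Oligodendrocyte markers summed to 1279 to 2439 FPKM in KA, 246.8 to 1037 in AAV-Control and 276.6 to 549.5 in PBS, and 2 and 6 of 6 were higher. The neuronal markers summed to 223.4 to 254.3 FPKM in KA, 122.5 to 126.3 in AAV-Control and 99.1 to 160.4 in PBS, with 3 higher and 1 lower of 9 against AAV-Control and 4 higher and 1 lower against PBS. The endothelial markers were lower where called, 2 of 4 tested against AAV-Control and 3 of 5 against PBS. Their sums were 4.07 to 5.64 FPKM in KA, 9.80 to 15.4 in AAV-Control and 5.29 to 17.1 in PBS, with Cdh5 at 0 in some KA and PBS libraries, and of them Flt1 (log2 -1.56 and -1.33) and Ly6c1 (-1.89 and -1.60) were lower against both references. The interneuron marker Sst had 16.8, 17.0 and 13.8 FPKM in KA IP, 141.3, 211.8 and 153.8 in AAV-Control IP and 268.4, 147.2 and 116.7 in PBS IP. The whole list of 9 interneuron markers did not share that order, with 4 higher and 2 lower of 8 tested against AAV-Control, 2 higher and 2 lower of 9 against PBS, and sums of 312.0 to 3088 FPKM in KA, 211.1 to 304.6 in AAV-Control and 221.9 to 529.4 in PBS. The part of these cell types in the Grik1 level in IP was not tested.

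PBS and AAV-Control were compared as the 2 reference groups. In input, 0 members passed edgeR's test, where 0% of all genes did, and 0 had an unadjusted p under 0.05, where 7.46% of all genes did. In IP, 0 members passed the edgeR test, where 0.0188% of all genes passed, and 0 had an unadjusted p under 0.05, where 10.2% of all genes did. DESeq2 and limma-voom called 0 members in either. The log2 differences of PBS over AAV-Control in IP were 0.34 for Grik1, 0.42 for Grik2, 0.43 for Grik3 and 0.39 for Grik4, with intervals that all included 0. Without AAV-Control #3, Grik5 and Neto2 were lower in PBS input, where 4411 of all genes were called, against 0 with it.

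The IP to input ratio says how far a transcript is enriched with the tagged ribosomes over total RNA of the same homogenate. Ratios are of FPKM unless stated otherwise. They lack the TMM scaling of the log2 values and need not match them. In AAV-Control, 4 members were lower in IP than in input, Grik3, Grik5, Neto1 and Neto2, where 37% of all genes passed and 18.5% were lower. The ratio of Neto1 was 0.222, 0.297 and 0.254 across the 3 homogenates (log2 -1.80, SE 0.22, adjusted p = 0.000548). That of Neto2 was 0.402, 0.447 and 0.414 (log2 -1.09, adjusted p = 0.00456). Grik3 was at 0.435, 0.369 and 0.237 (log2 -1.34, adjusted p = 0.0136) and Grik5 at 0.605, 0.577 and 0.422 (log2 -0.73, adjusted p = 0.0457, and 0.0585 with RLE size factors). With the homogenate as a block Grik4 passed too (log2 -0.65, adjusted p = 0.00950). Grik1 was above 1 in 2 of the 3 homogenates, at 0.809, 1.14 and 1.73 (log2 0.43, adjusted p = 0.253). Without homogenate #1 or #2, Neto1 alone passed, and without #3 there were 6, with Grik2 and Grik4 added. Over all genes, 1968 passed without #1 and 9183 without #3, against 5714 with all 3.

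In PBS, 5 members differed, where 52.2% of all genes passed, 27.2% higher and 25% lower. Grik1 was higher in IP, with ratios of 1.84, 0.905 and 2.40 (log2 0.77, SE 0.23, adjusted p = 0.00986), which makes it the only member called as enriched in any group. That call was lost without homogenate #1 (adjusted p = 0.0891) or #3 (0.111). Homogenate #2 was under 1 as a ratio of FPKM and at 1.14 as a ratio of TMM-scaled CPM over all 18 libraries, where all 3 were above 1. Neto1 was lower at ratios of 0.355, 0.213 and 0.468 (log2 -1.53, adjusted p = 3.04e-05) and Neto2 at 0.399, 0.270 and 0.586 (log2 -1.27, adjusted p = 2.77e-05). Grik3, at log2 -1.16, and Grik5, at -0.47, were lower as well, Grik5 losing its call without any of the 3 homogenates, without the filter on low counts (adjusted p = 0.0571) and with all 18 libraries in 1 fit (0.0559). Grik2 and Grik4 had log2 differences of 0.06 and -0.18 and were not called. Their FPKM ratios were above 1 in 2 of 3 homogenates each, and with TMM scaling over all 18 libraries in 2 for Grik2 and in 0 for Grik4 (0.968, 0.732 and 0.935).

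In KA, 4 members were lower in IP, Grik1, Grik3, Grik4 and Neto1, where 32.7% of all genes passed and 14.8% were lower. Grik1 had ratios of 0.469, 0.573 and 0.401, all under 1, where PBS had called it higher (log2 -0.76, SE 0.21, adjusted p = 0.0207). Grik3 had the smallest ratios of the family, 0.241, 0.224 and 0.210 (log2 -1.85, adjusted p = 0.000247). Neto1 was at 0.392, 0.441 and 0.268 (log2 -1.16, adjusted p = 0.000469) and Grik4 at 0.518, 0.718 and 0.399 (log2 -0.62, adjusted p = 0.0423). Neto2 was not called, at 1.01, 0.734 and 0.489 (log2 -0.10, 95% interval -0.66 to 0.45). With the homogenate as a block Grik5 passed too, at FPKM ratios of 0.617, 0.658 and 0.589 (log2 -0.38, adjusted p = 0.00343). Over all genes, 7353 passed with that block, against 5077 without it. With TMM scaling over all 18 libraries the KA ratios were nearer to 1. They were 0.748, 0.794 and 0.774 for Grik5, 0.569, 0.691 and 0.528 for Grik1, and 1.23, 0.885 and 0.643 for Neto2, where #1 was above 1. Without homogenate #1 or #2 the Grik1 and Grik4 calls were lost, and Grik4 was also lost without #3.

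**Figure D4:**
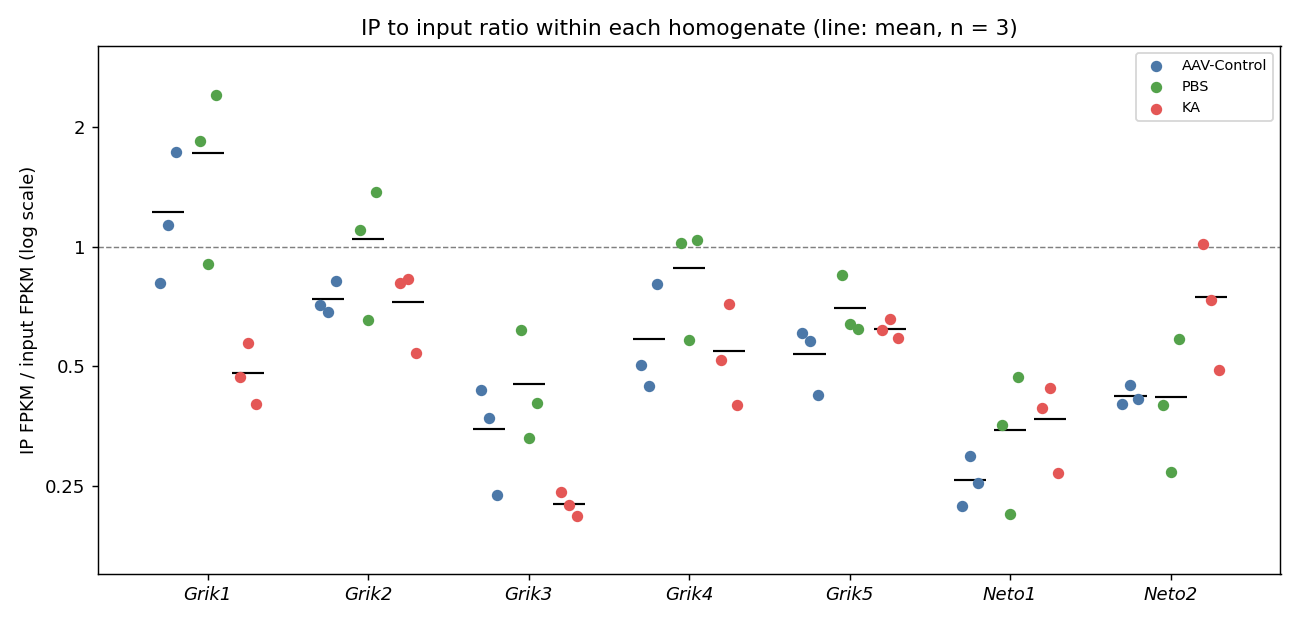
IP FPKM over input FPKM within each homogenate (vertical axis, log scale, dashed line at 1) for each member and group. Points are homogenates and lines their means (n = 3). These ratios carry no TMM scaling. Grik1 has means of 1.22 in AAV-Control, 1.72 in PBS and 0.481 in KA, and Neto2 has 0.421, 0.419 and 0.746.

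A test of the interaction over 12 libraries compared the KA effect in IP with that in input. With AAV-Control as the reference, Grik1 alone passed, with a KA effect lower in IP than in input (log2 difference -1.197, SE 0.33, 95% interval -1.91 to -0.48, adjusted p = 0.0433), where 8.28% of all genes passed and 3.38% were lower. Leaving out any 1 homogenate lost this call (adjusted p between 0.0520 and 0.158), as did limma-voom (0.0582), testing without a filter on low counts (0.0596) and run 1 alone (0.0859). Without the filter Neto2 passed (log2 0.996, adjusted p = 0.0352). With the homogenate as a block, Grik1 kept its call (-1.17, adjusted p = 0.00768), and Neto1 (0.63, adjusted p = 0.0169) and Neto2 (0.92, adjusted p = 0.00417) passed as higher. Over all genes, 4033 passed with that block, against 1393 without it. With PBS as the reference, Grik1 was lower (-1.56, SE 0.33, adjusted p = 0.00390) and Neto2 higher (1.12, SE 0.32, adjusted p = 0.0203), where 20.5% of all genes passed, 10.2% lower and 10.3% higher. Grik1 kept this call without any 1 homogenate, and Neto2 lost it without KA #1, KA #2, PBS #1 or PBS #2. The references share the KA libraries and are not independent. Marker ratios also differed between PBS and KA, as given above, and their part in these differences was not tested. For Grik5, the interval of the difference was -0.30 to 0.97 against AAV-Control and -0.40 to 0.52 against PBS.

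The partners of these receptors were read from a list of 30 genes for scaffolding and trafficking, modification, synaptic organisation, RNA editing and G protein signalling, of which 29 were tested. In input, 3 were lower and 0 higher against AAV-Control, where 1.42% of all genes were lower, and 12 lower and 0 higher against PBS, where 11.3% were, with median log2 fold changes of -0.20 and -0.32. The calcium/calmodulin kinase subunits Camk2a and Camk2b and the calcineurin subunit Ppp3ca, which modify synaptic proteins, were lower against both. Camk2a had 79.7, 92.9 and 108.0 FPKM in KA input, 173.1, 179.3 and 168.7 in AAV-Control and 197.0, 195.9 and 204.4 in PBS (log2 -0.90 and -1.12, adjusted p = 0.0338 and 0.000383). Camk2b was at log2 -0.85 and -0.86, and Ppp3ca at -1.01 and -0.80.

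In IP, 7 partners were higher and 0 lower against AAV-Control, where 11% of all genes were higher, and 9 higher and 3 lower against PBS, where 19.6% were higher and 20.8% lower, with medians of 0.32 and 0.21 against -0.03 and -0.03 over all genes. Called as higher against both were the scaffold gene Dlg3, the vesicle fusion genes Snap25 and Nsf, the kinase Prkcb and the synaptic organisers C1ql2 and C1ql3, whose products bridge kainate receptors and neurexin 3 at mossy fibre synapses. C1ql2 had 6.92, 22.9 and 30.6 FPKM in KA IP, 5.28, 5.91 and 4.96 in AAV-Control and 8.36, 4.90 and 4.24 in PBS (log2 2.07 and 1.95, adjusted p = 0.0223 and 0.00471). KA #1 was below PBS #1, so that the groups overlapped there. C1ql3 had 1.701, 2.01 and 2.56 FPKM in KA, all above the AAV-Control libraries at 0.638, 0.660 and 0.647 and the PBS libraries at 1.38, 0.587 and 1.35 (log2 1.81 and 1.11, adjusted p = 0.00799 and 0.0265). Dlg3 was at log2 1.37 and 1.31, Snap25 at 1.48 and 1.04, Nsf at 1.199 and 0.98 and Prkcb at 0.80 and 0.75. The neuronal marker sums given above were higher in the same KA IP libraries. Dentate granule cell markers summed to 24.6 to 38.0 FPKM in KA IP, 15.7 to 20.4 in AAV-Control IP and 13.1 to 25.5 in PBS IP. The part of these markers in the partner values was not tested.

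Nrxn3, which encodes neurexin 3, did not pass against either reference in IP (log2 0.47 and 0.21) or in input (-0.39 and -0.32). In input, C1ql2 was lower against PBS (log2 -0.48, adjusted p = 0.0242) but had an adjusted p of 0.498 against AAV-Control, and C1ql3 was at 0.24 and 0.07. Of the RNA editing enzymes, Adarb1, which edits the GluK2 channel codon, was higher in KA IP against AAV-Control (log2 0.64, adjusted p = 0.0287) and at -0.02 against PBS. In input it was lower against PBS (log2 -0.38, adjusted p = 0.0120). Adar did not pass in any of these 4 comparisons, with log2 fold changes between -0.38 and 0.46.

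By the root mean square distance between centred log2 CPM over the 6 group means, the gene whose pattern was most like that of Grik1 among 17671 genes was Mir100hg (0.07), followed by Rpgrip1 and Gm43484. For Grik2 these were Camkmt, Lrp1b and Shmt1, for Grik3 Itprid1, C530008M17Rik and Nos1, and for Grik4 3110080E11Rik, Zkscan16 and Lrrc7. Those nearest to Grik5 were Pip4k2b (0.03), Sntb2 and Cnot7. Neto1 was nearest to Syt16, Flrt3 and Dok6, and Neto2 to Gm16286, Megf9 and Rnf26. No member was among the 3 nearest genes of another member.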

How the data were processed

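RNA-seq of 18 libraries from mouse hippocampus was analysed, namely IP and input of 3 homogenates in each of 3 groups. The authors aligned reads to mm10 with STAR. The submitters' processing notes also name featureCounts and edgeR, while versions, annotation release, strandedness and the handling of reads shared between genes are not given in the sources used here. The deposited counts are whole numbers per gene symbol without normalization. The deposited FPKM values equal count over library total and a fixed length, within 1%, for 99.8% of 18769 genes. Neither file holds more than 1 value column.

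Levels, shares and ratios use FPKM. Tests use the counts with edgeR 4.0.16 in R 4.3.3 (TMM normalization, quasi-likelihood test, two-sided, Benjamini-Hochberg adjustment over all genes kept by filterByExpr with a minimum count of 10 and total of 15). A gene was called at an adjusted p under 0.05. Each group comparison was fitted on its 6 libraries and each interaction on its 12, with no block, since the sources used here state none. Its FPKM filter was an alternative because it drops members. SE is the log2 fold change over the square root of F. The fits were tested on simulated data for KA against AAV-Control IP, IP against input of KA, and the interaction with AAV-Control. In that order, a true log2 change of 1 was recovered in 14%, 47% and 2% of changed genes. A log2 change of 2 was recovered in 83%, 92% and 48%. False calls were 12 of 109, 10 of 149 and 6 of 56. A member that did not pass is therefore not shown to be unchanged. Alternatives were DESeq2 1.42.0, limma-voom (limma 3.58.1), RLE size factors, other filters, all 18 libraries in 1 fit, replicate blocks, sequencing run and leaving out each homogenate.

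Same-numbered IP and input libraries come from 1 homogenate, and their deviations from the group means correlated at 0.155 to 0.751 over 9001 genes. Same-numbered KA and AAV-Control libraries, from separate pools that share a sequencing run, correlated at 0.348 to 0.551. Numbers did not pair PBS with the other groups. Libraries within a group differed by 4.48 to 108.9 times the counting variance, so none was a duplicate. The replicates are separate pools of mice.

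The members and gene lists were chosen with earlier results of these data known. Named in the text were the members, the partners called against both references (up to 8 per kind of library), the synaptic organisers and RNA editing enzymes, the 3 nearest genes per member, and markers that moved beside a result. Among the markers, Pdgfra, Sst, Flt1, Ly6c1, Slc1a2, Kcnj10, Syp, Elavl4 and Mog were chosen after their values were seen. Coordinates are those of GENCODE on GRCm38, in which 53292 of 55291 symbols matched. The precision of a count is set by its size, and 1 partner, Klhl17, was not analysed here.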

Additional observations from a re-analysis of the deposited data

Results flagged for a closer look

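For Grik1, the KA effect was called as different between IP and input. Against AAV-Control the effect in IP was lower (log2 difference -1.197, SE 0.33, edgeR adjusted p = 0.0433), with all 3 KA homogenates at IP to input ratios under every AAV-Control homogenate. That call was lost without any 1 homogenate, with limma-voom, without a filter on low counts and within run 1. Against PBS the value was -1.56 (SE 0.33, adjusted p = 0.00390), and this call was kept without any 1 homogenate. The KA effect on Neto2 differed in the other direction against PBS, at 1.12 (SE 0.32, adjusted p = 0.0203), where the FPKM ratio of KA homogenate #3, at 0.489, lay under that of PBS #3, at 0.586. With TMM scaling over all 18 libraries the order of these was the reverse, at 0.643 and 0.527, and every KA homogenate lay above every PBS homogenate. Outliers within groups were not tested, since each group had 3 homogenates.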

How the results depend on the processing

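Counts of members called in KA against AAV-Control input (0) became 1 with the replicate block, 2 with sequencing run as a covariate and 5 within run 1. Those in KA against PBS input (2) became 0 with all 18 libraries in 1 fit and 3 with RLE size factors. In IP, the count against AAV-Control (1) became 0 under the FPKM filter, 2 with all 18 libraries and 3 within run 1, and that against PBS (5) became 1 under the FPKM filter. The difference of KA effects with AAV-Control (1) became 0 with limma-voom, 0 under the FPKM filter, 3 with the replicate block, 3 with run as a covariate and 2 within run 1, and with PBS (2) it became 0 under the FPKM filter. The IP to input count of AAV-Control (4) became 3 with RLE size factors, 3 under the FPKM filter and 5 with all 18 libraries, that of PBS (5) became 4 under the FPKM filter, without a filter and with all 18 libraries, and that of KA (4) became 3 under the FPKM filter. The FPKM filter drops Grik1, Grik2 and Grik3 where KA IP libraries enter, and Grik3 alone in the other comparisons with IP libraries. Shares over all genes moved as well. Within run 1, 38.6% of all genes passed in KA against AAV-Control input, 43.1% in IP and 23.2% in the difference of KA effects. The main fits gave 7.2%, 19.8% and 8.28%. With the replicate block, that difference was called in 4033 genes, against 1393 without it. The cause of the other changes in member counts was not tested.

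With the replicate number as a block, Neto1 was added in input against AAV-Control, where same-numbered homogenates are separate pools that share a sequencing run. With the homogenate as a block, which pairs IP and input, Grik4 was added in AAV-Control and Grik5 in KA. In the difference of KA effects with AAV-Control, Neto1 and Neto2 were added. The block changed no other call of a member in these comparisons.

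Leaving out 1 homogenate at a time gave 0 to 3 members in KA against AAV-Control input, 1 to 4 against PBS input, and 0 to 2 in PBS against AAV-Control input. In IP it gave 0 to 2, 3 to 5, and 0 to 0 in the same order. IP against input gave 1 to 6 in AAV-Control, 3 to 4 in PBS and 2 to 4 in KA, and the differences of KA effects gave 0 to 0 with AAV-Control and 1 to 2 with PBS.

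The log2 values that changed sign under an alternative had not been called. Leaving out 1 homogenate at a time gave these ranges for them. In KA against PBS input, Grik1 was -0.10 to 0.033 and Grik5 -0.028 to 0.12. In PBS against AAV-Control input, Grik1 was -0.082 to 0.020, Grik2 -0.11 to 0.19 and Neto1 -0.12 to 0.087. In KA against AAV-Control IP, Grik5 was -0.13 to 0.25 and Neto1 -0.025 to 0.30. Grik5 was -0.016 to 0.18 in KA against PBS IP and -0.25 to 0.16 in PBS against AAV-Control IP. In IP against input, Grik2 was -0.098 to 0.19 in PBS and Neto2 -0.43 to 0.11 in KA. In the difference of KA effects, Grik2 was -0.00019 to 0.28 and Grik4 -0.21 to 0.29 with AAV-Control, and Grik5 -0.091 to 0.16 with PBS. Under other settings, Grik5 was -0.030 within run 1 in KA against AAV-Control IP and -0.076 under the FPKM filter in KA against PBS IP. In PBS against AAV-Control IP it was -0.016 with DESeq2, -0.016 with RLE size factors, -0.018 without a filter and -0.0061 with all 18 libraries. Neto1 was -0.0024 under the FPKM filter in PBS against AAV-Control input. In the differences of KA effects, Grik4 was -0.00069 with DESeq2 and -0.066 under the FPKM filter with AAV-Control, and Grik5 -0.15 under the FPKM filter with PBS.

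Over all genes, 1133 were called in KA against AAV-Control input, with 420 without KA #1 and 6185 within run 1. Against PBS input there were 4369, with 1872 with all 18 libraries and 6633 without KA #3. In IP there were 3027 against AAV-Control, with 1493 without KA #1 and 6601 within run 1, and 6394 against PBS, with 3647 under the FPKM filter. IP against input gave 5714 in AAV-Control, with 1968 without #1 and 9183 without #3, 8365 in PBS, and 5077 in KA, with 2204 without #1. The differences of KA effects gave 1393 with AAV-Control, with 473 without KA #2 and 4033 with the replicate block, and 3508 with PBS, with 1677 without KA #1 and 5366 with the block. Grik3 in IP, at 23 to 99 counts, was limited most by depth.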
